A study of Mus musculus with 11 samples.

Results

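The genes described here build the machinery that copies DNA in S phase. They are the 42 genes, of 24319 symbols in the tables, whose symbols stand on a list of origin, helicase, polymerase, clamp and nucleotide supply genes, and all 42 had values above 0 in all 11 libraries. RNA of C57BL/6J mice was sequenced to follow B cell acute lymphoblastic leukemia (B-ALL) in mice heterozygous for the B-lineage transcription factors Ebf1 and Pax5 (dHet). The B-ALL libraries came from lymph node leukemic cells with the genotype Ebf1+/- Pax5+/-, in which 3 mice, numbered 686, 713 and 760, gave 2 libraries each. The 3 dHet proB libraries carried Ebf1+/- Pax5+/- Rag2-/- and came from c-Kit positive fetal liver cells grown for a short time on OP9 feeder cells in OptiMEM with IL-7 (5 ng/ml), Flt3 ligand (10 ng/ml) and stem cell factor (10 ng/ml). The 2 wt proB libraries were Ebf1+/+ Pax5+/+ Rag2+/+ cells sorted from bone marrow as Fraction BC. Ebf1 and Pax5 genotype, Rag2 genotype, tissue, fetal origin, culture and leukemia changed in combination between the groups and cannot be told apart. Of these, Ebf1 and Pax5 genotype differed only in comparisons with wt proB, and leukemia only in comparisons with B-ALL. The sources used here do not give ages or how many animals lie behind the proB libraries.

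Replication starts at origins, where the origin recognition complex with Cdc6 and Cdt1 loads the ring-shaped MCM2-7 helicase onto DNA before S phase. Cdc45, the GINS complex and Mcm10 turn the loaded ring into an active helicase, polymerase alpha-primase lays down primers, and polymerases epsilon and delta extend them on the leading and lagging strands. The sliding clamp PCNA, set on DNA by the RFC clamp loader, holds the polymerases, RPA covers single-stranded DNA, Fen1 and Lig1 finish the Okazaki fragments of the lagging strand, and ribonucleotide reductase makes the deoxynucleotides. Many of these genes are transcribed around the start of S phase under E2F factors, which the retinoblastoma family holds back, and proB cells are among the fast dividing cells of B lymphopoiesis.

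Expression was given as FPKM, fragments scaled by transcript length and library size. The FPKM sums of the libraries ranged from 505261 to 638953, and 9850 to 10595 genes had 1 FPKM or more. None of the 12 B-lineage markers was at 0 in any of the 11 libraries. Ebf1 had 151 to 212 FPKM in B-ALL libraries, 283 to 369 in dHet proB libraries and 297 and 542 in wt proB libraries. Pax5 had 35.3 to 52.8 FPKM in B-ALL libraries, 70.9 to 99 in dHet proB libraries and 57.2 and 101 in wt proB libraries. Rag2, deleted in the dHet proB cells, still had 8.57 to 12.6 FPKM there, against 31.1 and 37.8 in wt proB libraries, and which part is deleted is not known here. The library labelled dHet proB replicate 3 carries a source name that says replicate 2, and it stands apart from the others in what follows. The dHet proB and wt proB libraries are not stated to be separate animals or cultures. In comparisons of groups, p-values rest on the scatter of the B-ALL mice and of the proB libraries, and part of the latter may be technical. In the test among mice, p-values measure only the scatter of libraries.

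Sequence upstream of the genes is shown first, since many members share the letters that E2F factors bind. RefSeq promoter windows (GRCm38.p6, 250 bases before to 50 after the gene start) were found for 35 of the 42 genes, and not for Mcm4, Gins1, Gins2, Gins4, Prim2, Pole and Rfc2. An E2F octamer (TTTCCCGC, TTTGGCGC, TTTCGCGC, TTTGGCGG or TTTCCCGG, on either strand) lay in the windows of 18 of the 35 (51.4%), against 7.7% of 8632 expressed genes and 4.1% of all 27025 genes of the table. TTTCCCGC was the most frequent, in 8 members, and TTTCCCGG was in none. A CCAAT box (CCAAT or its complement ATTGG) lay in 23 of the 35 (65.7%), against 43.2% of the expressed genes. Such matches describe letters, not bound sites.

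The upstream bases of 6 members with an octamer are given 5′ to 3′ on the strand of the gene, ending at the last base before the gene start, with E2F octamers in capitals. Orc1 and Cdc6 act in origin licensing, Mcm5, Mcm6 and Mcm7 are helicase subunits, and Gins3 belongs to GINS.
Orc1 (chr4:108579414-108579453, plus strand): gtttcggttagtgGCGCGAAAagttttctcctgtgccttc
Cdc6 (chr11:98908001-98908150, plus strand): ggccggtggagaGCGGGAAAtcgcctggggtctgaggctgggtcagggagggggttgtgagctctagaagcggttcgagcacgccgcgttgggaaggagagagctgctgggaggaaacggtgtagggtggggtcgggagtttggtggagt
Mcm5 (chr8:75109339-75109508, plus strand): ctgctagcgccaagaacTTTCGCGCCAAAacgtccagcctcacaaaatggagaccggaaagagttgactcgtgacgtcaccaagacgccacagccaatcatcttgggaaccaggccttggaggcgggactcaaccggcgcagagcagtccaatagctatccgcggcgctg
Mcm6 (chr1:128359706-128359835, minus strand): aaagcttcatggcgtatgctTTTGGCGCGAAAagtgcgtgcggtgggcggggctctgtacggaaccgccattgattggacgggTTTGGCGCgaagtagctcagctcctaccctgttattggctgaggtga
Mcm7 (chr5:138171884-138172063, minus strand): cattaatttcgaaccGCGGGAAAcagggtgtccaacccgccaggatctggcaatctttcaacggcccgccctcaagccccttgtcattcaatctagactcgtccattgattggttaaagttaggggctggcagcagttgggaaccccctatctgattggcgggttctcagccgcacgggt
Gins3 (chr8:95633499-95633558, plus strand): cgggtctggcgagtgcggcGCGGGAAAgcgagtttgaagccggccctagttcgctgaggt
Mcm5 holds 2 overlapping octamers that read toward each other, Mcm6 holds such a pair and another octamer nearer to the start, and the stretches of Orc1, Cdc6, Mcm7 and Gins3 hold 1 each.

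Rrm2, the reductase subunit whose RNA differed most between the dHet proB libraries, and Pcna, the clamp, are shown for contrast, because their windows held a CCAAT box and none of the octamers. The box or its complement is in capitals.
Rrm2 (chr12:24708134-24708253, plus strand): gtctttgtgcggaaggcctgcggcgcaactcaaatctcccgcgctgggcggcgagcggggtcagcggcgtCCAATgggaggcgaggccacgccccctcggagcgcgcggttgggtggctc
Pcna (chr2:132253181-132253300, minus strand): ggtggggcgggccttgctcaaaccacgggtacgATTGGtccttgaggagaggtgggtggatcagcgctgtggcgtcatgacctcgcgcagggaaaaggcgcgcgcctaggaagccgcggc
A window without an octamer says only that these letters are not in it.

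The 42 genes together made up 0.423% to 1.24% of the FPKM of a library. Their summed level was 5606 and 5249 FPKM in the libraries of mouse 686, 4179 and 3960 in those of mouse 713, 5493 and 4792 in those of mouse 760, 4364, 7224 and 2135 in dHet proB libraries 1, 2 and 3, and 4679 and 4975 in the wt proB libraries. The highest and the lowest sums were both dHet proB libraries, and every other library lay between them. In bulk RNA a smaller share of cells in S phase and less RNA per such cell cannot be told apart.

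**Figure D1:**
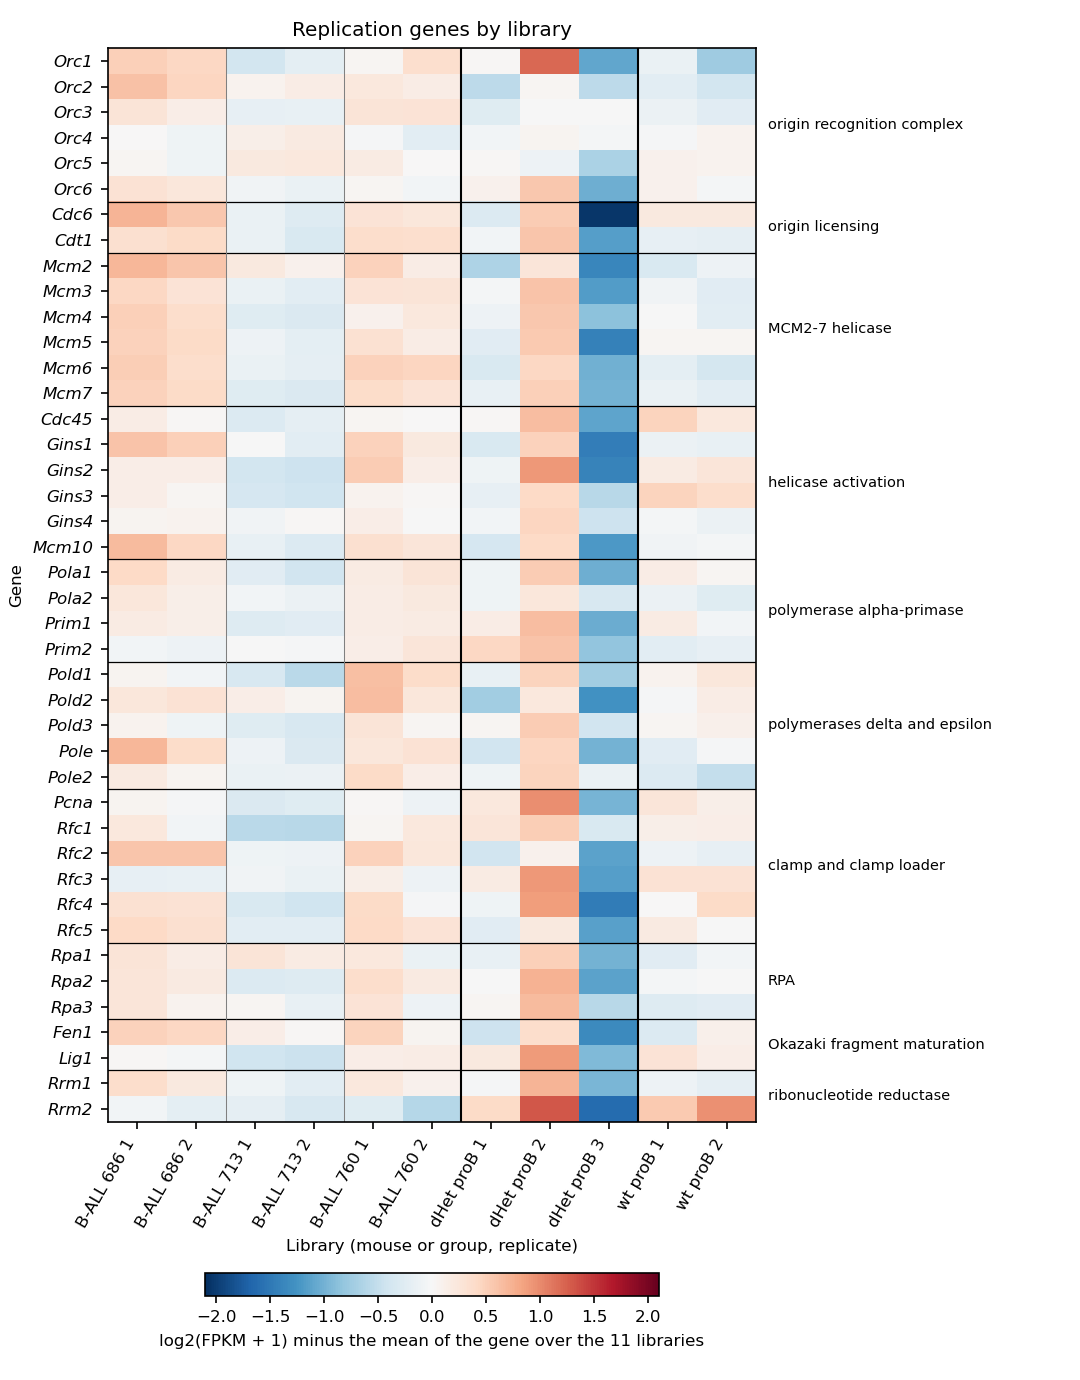
Level of each of the 42 replication genes in each library, as log2(FPKM + 1) minus the mean of that gene over the 11 libraries; rows are grouped by role, columns by group. The column of dHet proB library 3 is below the mean in nearly every row and that of library 2 above it, while the columns of each other group differ less.

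Among the subunits of the origin recognition complex, which marks origins, Orc6 had the highest FPKM in 10 of the 11 libraries and Orc1 the lowest in 10. Orc6 had 70 and 66.2 FPKM in mouse 686, 53.4 and 51.1 in mouse 713, 58.2 and 53.8 in mouse 760, 59.8, 83.7 and 27.2 in dHet proB libraries 1 to 3, and 59.7 and 54.9 in wt proB libraries. All groups overlapped for Orc6, and dHet proB library 3 was lowest. Orc2 had 33.1 and 29.2 FPKM in mouse 686, 22.3 and 23.6 in mouse 713, 24.9 and 23.6 in mouse 760, 14.1, 21.7 and 14.2 in dHet proB libraries 1 to 3, and 18.1 and 15.9 in wt proB libraries. Every B-ALL library was thus above every proB library for Orc2. Between B-ALL and dHet proB, 2.38% of members had groups that did not overlap, against 34.9% of all genes. Between B-ALL and wt proB the shares were 28.6% and 48.2%, and between the proB groups 4.76% and 43.0%. Such gaps were thus less frequent among members than among all genes, and those named here and below describe single genes. Orc3 and Orc4 were the flattest members: Orc4 had 25.1 to 33.6 FPKM over the B-ALL libraries, 28.3 to 30.7 over the dHet proB libraries and 28.9 and 30.8 in the wt proB libraries, and Orc3 had 13.8 to 19.3 FPKM over the B-ALL libraries, 13 to 15.6 over the dHet proB libraries and 13.1 and 14.4 in the wt proB libraries. Orc1, the largest subunit, ran from 2.37 FPKM in dHet proB library 3 to 15.7 in library 2. Orc5 had 19.7 to 24.7 FPKM in B-ALL libraries, 13 to 21.5 in dHet proB libraries and 22.2 and 22.6 in wt proB libraries.

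The loading factor Cdt1 had 61.2 and 64.3 FPKM in mouse 686, 43.7 and 38.6 in mouse 713, 63.1 and 62 in mouse 760, 46.7, 73.3 and 21.1 in dHet proB libraries 1 to 3, and 42.9 and 42.4 in wt proB libraries. Mouse 713 lay near the wt proB libraries and the other 2 mice above them. Its partner Cdc6 had 49.6 and 44.4 FPKM in mouse 686, 26.8 and 24.6 in mouse 713, 36.7 and 35.4 in mouse 760, 24.3, 43.4 and 6.44 in dHet proB libraries 1 to 3, and 34.5 and 34.4 in wt proB libraries. The wt proB pair was nearly equal, while the dHet proB libraries spanned a 6.74-fold range.

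The MCM2-7 subunits, which form a ring with 1 copy of each, were unequal at the RNA level, and the order on the FPKM scale was nearly the same in every library: Mcm6 was highest in 10 of 11 and Mcm4 lowest in 10 of 11, with the highest 2.15 to 3.27 times the lowest. Mcm6 had 376 and 338 FPKM in mouse 686, 238 and 229 in mouse 713, 367 and 361 in mouse 760, 209, 355 and 130 in dHet proB libraries 1 to 3, and 227 and 203 in wt proB libraries. Mcm2 had 308 and 283 FPKM in mouse 686, 217 and 200 in mouse 713, 264 and 211 in mouse 760, 120, 225 and 72.2 in dHet proB libraries 1 to 3, and 151 and 175 in wt proB libraries. For both, every B-ALL library was above both wt proB libraries, and dHet proB library 2 alone among the proB libraries reached the B-ALL range.

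The other MCM genes had the following levels. Mcm7 had 327 and 309 FPKM in mouse 686, 196 and 189 in mouse 713, 305 and 283 in mouse 760, 210, 331 and 116 in dHet proB libraries 1 to 3, and 211 and 199 in wt proB libraries. Mcm3 had 264 and 237, 176 and 167, and 239 and 236 FPKM in mice 686, 713 and 760, 190, 295 and 86.2 in dHet proB libraries 1 to 3, and 186 and 165 in wt proB libraries. In both genes mouse 713 was close to wt proB and the other mice were above it. Mcm5 had 189 and 178, 125 and 117, and 168 and 150 FPKM in mice 686, 713 and 760, 114, 197 and 49.8 in dHet proB libraries 1 to 3, and 139 and 138 in wt proB libraries. Mcm4 had 149 and 136, 87.7 and 85.1, and 112 and 123 FPKM in mice 686, 713 and 760, 97.5, 157 and 57.8 in dHet proB libraries 1 to 3, and 105 and 90.3 in wt proB libraries. For Mcm5 and Mcm4 the B-ALL libraries lay on both sides of the wt proB libraries. All 6 genes were lowest of all 11 libraries in dHet proB library 3.

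**Figure D2:**
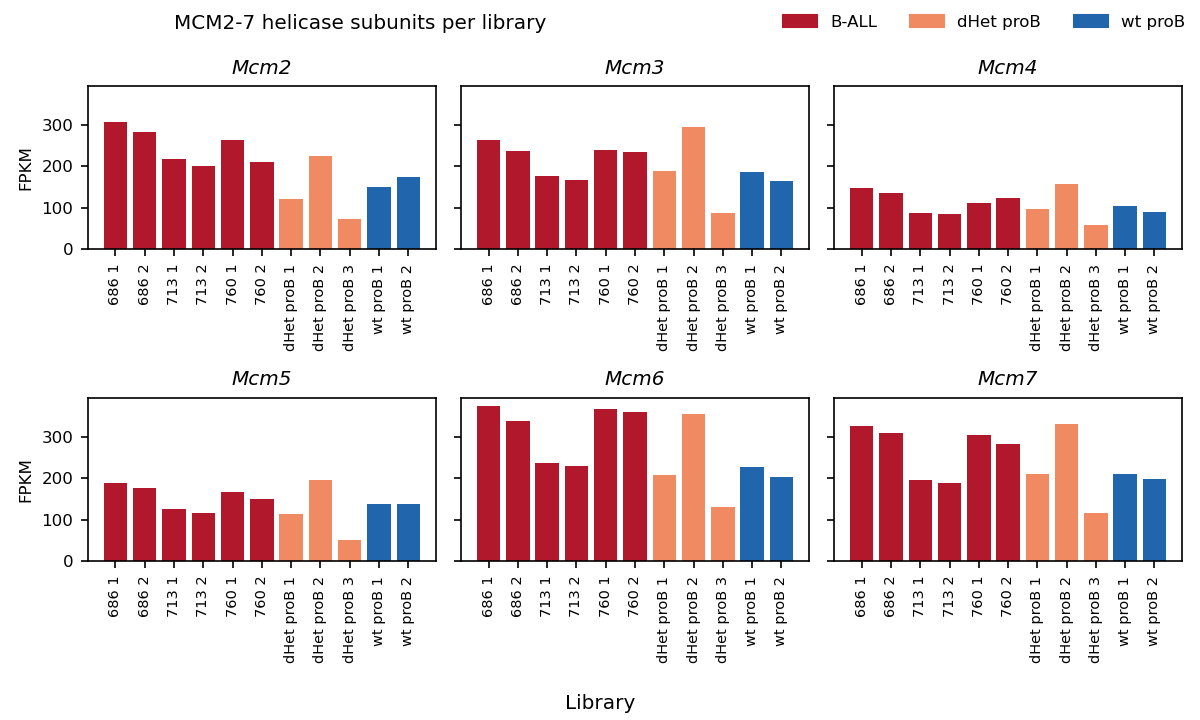
FPKM of the 6 MCM2-7 genes in each of the 11 libraries; bars are single libraries, coloured by group, and mice are given by number. In every panel dHet proB library 3 is the lowest bar, and for Mcm6 it stands at 130 FPKM against 355 for library 2.

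Of the genes that turn the ring into an active helicase, Gins2, a GINS subunit, had 105 and 105 FPKM in mouse 686, 72.1 and 69.9 in mouse 713, 138 and 105 in mouse 760, 88.8, 179 and 35.3 in dHet proB libraries 1 to 3, and 107 and 113 in wt proB libraries. Its groups overlapped, and on the FPKM scale it was the highest of the 6 helicase activation genes in 10 of 11 libraries. Gins3 had 22 and 20.4 FPKM in mouse 686, 15.4 and 14.7 in mouse 713, 21.1 and 20.3 in mouse 760, 17.5, 27.1 and 12.9 in dHet proB libraries 1 to 3, and 27.9 and 25.9 in wt proB libraries, so every B-ALL library was below both wt proB libraries. Cdc45, the helicase partner of GINS, did likewise, with 23.8 to 32.7 FPKM in B-ALL libraries, 13.1 to 46.8 in dHet proB libraries and 34.4 and 40.8 in wt proB libraries. Gins1 had 34.5 to 61.5 FPKM in B-ALL libraries, 14.1 to 56.9 in dHet proB libraries and 35.8 and 36.7 in wt proB libraries. Gins4 had 50.5 to 58.5 FPKM in B-ALL libraries, 38.9 to 72.7 in dHet proB libraries and 48.4 and 51.6 in wt proB libraries. Mcm10 had 17.5 to 34.8 FPKM in B-ALL libraries, 8.76 to 29.1 in dHet proB libraries and 20.3 and 20.8 in wt proB libraries. These 3 genes overlapped between all groups.

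For polymerase alpha-primase, the primer-making enzyme, the primase subunits Prim1 and Prim2 exceeded the catalytic polymerase subunit Pola1 on the FPKM scale in all 11 libraries. Prim1 had 81 and 77.8 FPKM in mouse 686, 59.5 and 60.6 in mouse 713, 80.1 and 80.7 in mouse 760, 80.2, 113 and 34.3 in dHet proB libraries 1 to 3, and 81.1 and 68.6 in wt proB libraries. Prim2 had 66.2 to 85.3 FPKM over the B-ALL libraries, 39.6 to 108 over the dHet proB libraries and 60.9 and 63 in the wt proB libraries, and every B-ALL library was above both wt proB libraries. Pola1 had 15.2 to 27.7 FPKM over the B-ALL libraries, 9.55 to 30.2 over the dHet proB libraries and 21.2 and 22.9 in the wt proB libraries. Pola2, the accessory subunit, had 46.2 to 59.2 FPKM over the B-ALL libraries, 39.7 to 59.8 over the dHet proB libraries and 41.9 and 46.2 in the wt proB libraries.

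Pold1, the catalytic subunit of polymerase delta, had 157 and 146 FPKM in mouse 686, 120 and 102 in mouse 713, 236 and 198 in mouse 760, 135, 209 and 90.3 in dHet proB libraries 1 to 3, and 159 and 178 in wt proB libraries. It differed most among the mice of all 42 genes, with a 1.96-fold range of the mouse means. Pold2, its B subunit, had 145 and 152, 135 and 128, and 192 and 145 FPKM in mice 686, 713 and 760, 73.5, 143 and 50.3 in dHet proB libraries 1 to 3, and 120 and 136 in wt proB libraries. Pole, the catalytic subunit of polymerase epsilon, was far lower, at 7.78 to 16.6 FPKM in B-ALL libraries, 4.44 to 13.8 in dHet proB libraries and 8.2 and 9.69 in wt proB libraries. Pole2, its B subunit, had 19.7 to 29.1 FPKM in B-ALL libraries and 19.7 to 30.6 in dHet proB libraries, all above the 15.1 and 17.7 of the wt proB libraries. Pold3, a further polymerase delta subunit, overlapped between all groups, at 40.8 to 62.5 FPKM in B-ALL libraries, 38.8 to 75.2 in dHet proB libraries and 53.1 and 55.7 in wt proB libraries.

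The clamp gene Pcna had 279 and 263 FPKM in mouse 686, 218 and 225 in mouse 713, 273 and 249 in mouse 760, 311, 526 and 136 in dHet proB libraries 1 to 3, and 321 and 293 in wt proB libraries. Every B-ALL library was below both wt proB libraries and below dHet proB libraries 1 and 2. Rfc2, a small clamp loader subunit, had 298 and 296 FPKM in mouse 686, 186 and 184 in mouse 713, 278 and 233 in mouse 760, 149, 211 and 90.4 in dHet proB libraries 1 to 3, and 184 and 176 in wt proB libraries. Rfc1, the large subunit, was the lowest of the clamp and loader genes in all 11 libraries, at 24.7 to 44 FPKM in B-ALL libraries, 29.8 to 54.4 in dHet proB libraries and 40.8 and 41.5 in wt proB libraries. Rfc3 had 76.2 to 93.8 FPKM in B-ALL libraries, 38.2 to 163 in dHet proB libraries and 107 in both wt proB libraries, the B-ALL libraries all below wt proB. Rfc4 and Rfc5 overlapped between all groups. Rfc4 had 129 to 229 FPKM in B-ALL libraries, 61.7 to 319 in dHet proB libraries and 173 and 228 in wt proB libraries, and Rfc5 had 79.8 to 125 FPKM in B-ALL libraries, 42.2 to 108 in dHet proB libraries and 92.7 and 107 in wt proB libraries.

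Rpa1, the large subunit of the single-strand binding protein RPA, was above Rpa2 and Rpa3 in every library. It had 237 and 217 FPKM in mouse 686, 235 and 219 in mouse 713, 229 and 177 in mouse 760, 176, 276 and 98 in dHet proB libraries 1 to 3, and 165 and 187 in wt proB libraries. Unlike most members it was not lowest in mouse 713. Rpa2 had 104 to 164 FPKM in B-ALL libraries, 58 to 213 in dHet proB libraries and 124 and 127 in wt proB libraries, and Rpa3 had 122 to 166 FPKM in B-ALL libraries, 90.4 to 217 in dHet proB libraries and 113 and 116 in wt proB libraries.

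Fen1, the flap nuclease that trims Okazaki fragments, had 358 and 346 FPKM in mouse 686, 283 and 260 in mouse 713, 354 and 267 in mouse 760, 190, 332 and 101 in dHet proB libraries 1 to 3, and 211 and 275 in wt proB libraries. Lig1, the ligase that seals them, had 80 and 76.8, 58.9 and 57.4, and 86.6 and 88 FPKM in mice 686, 713 and 760, 91.2, 147 and 41 in dHet proB libraries 1 to 3, and 96.1 and 86.7 in wt proB libraries. Fen1 over Lig1 was 3.04 to 4.81 in B-ALL libraries, 2.08 to 2.47 in dHet proB libraries and 2.19 and 3.17 in wt proB libraries.

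Rrm2, the regulated small subunit of ribonucleotide reductase, had the widest range of the 42 members across the dHet proB libraries (7.59-fold), against 1.22-fold over the means of the mice. It had 518 and 468 FPKM in mouse 686, 472 and 427 in mouse 713, 453 and 353 in mouse 760, 713, 1333 and 175 in dHet proB libraries 1 to 3, and 790 and 1050 in wt proB libraries. All B-ALL libraries were below both wt proB libraries, and dHet proB libraries 2 and 3 were the highest and the lowest of all 11. Rrm1, the large subunit that holds the active site, had 207 and 184, 150 and 137, and 187 and 170 FPKM in mice 686, 713 and 760, 157, 265 and 82.3 in dHet proB libraries 1 to 3, and 149 and 141 in wt proB libraries. Rrm2 over Rrm1 was 2.08 to 3.15 in B-ALL libraries, 4.55, 5.03 and 2.13 in dHet proB libraries 1 to 3, and 5.3 and 7.44 in wt proB libraries.

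Some of these levels are uncertain because other genes share sequence with the member. Of the 50-base words of its transcripts, Fen1 shared 76.7% with other genes, mainly the antisense gene Gm10143, Gins2 65.4% with Gse1, Orc2 26.7% with Nif3l1, Mcm7 23.3%, mainly with the pseudogene Gm5487, Pcna 19.1% with Pcna-ps2, and Rfc2 16%, mainly with Lat2. The counting is not stated to use strand, so reads of such partners cannot be told apart.

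The replication genes moved together across the dHet proB libraries. Library 2 was above library 1 and library 1 above library 3 in 38 of 42 members (90.5%), against 22% of 11293 expressed genes, and the 4 exceptions were Orc2, Orc3, Orc4 and Orc5. Library 2 was the highest of all 11 libraries in 26 members, against 9.66% of all genes, and library 3 the lowest of all 11 in 37, against 13.2%. Library 2 exceeded library 3 by a median of 1.54 on the log2 scale over the members, against -0.04 over all genes, and by at least 2-fold in 33 members, against 5.5% of all genes. The smallest difference was 0.00 for Orc3 and the greatest 2.92 for Rrm2, followed by Cdc6 at 2.58. Members with an E2F octamer had a median difference of 1.50 (18 genes, 0.00 to 2.58) and those without one 1.63 (17 genes, 0.56 to 2.92). Under rescaling to a common sum (TPM) or quantile normalization the order held in 37 and 40 members. These counts have no test.

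**Figure D3:**
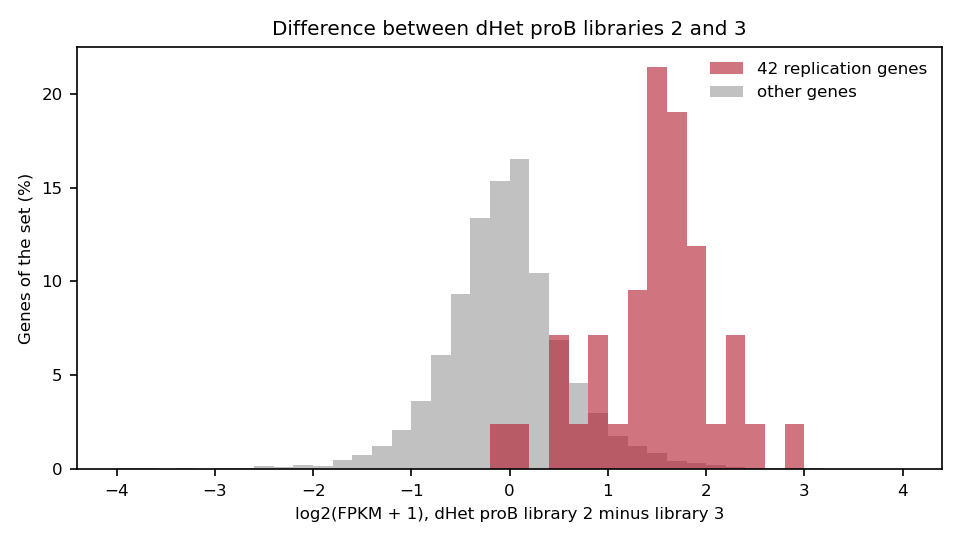
Difference of log2(FPKM + 1) between dHet proB libraries 2 and 3, as the percent of the 42 replication genes and of the other expressed genes in bins of 0.2, with values beyond 4 placed in the end bins. The members centre near their median of 1.54 and the other genes near 0.

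By role, the median of library 2 minus library 3 was 0.57 for the origin recognition complex, 2.16 for Cdc6 and Cdt1, 1.57 for MCM2-7, 1.69 for helicase activation, 1.50 for polymerase alpha-primase, 1.20 for polymerases delta and epsilon, 1.64 for the clamp and its loader, 1.49 for RPA, 1.76 for Fen1 and Lig1, and 2.30 for ribonucleotide reductase. Genes outside the member list that act in the cell cycle differed too: all 15 mitosis genes were higher in library 2 than in library 3, by a median of 1.27, as were 15 of 16 E2F and S phase regulators, by 1.50, and all 27 other replication fork and origin genes, by 1.31. Of 8 other nucleotide supply genes 7 were higher, with a median of 1.37 over the 8, and Samhd1 was lower at -1.39. Of all 11293 expressed genes, 44.9% were higher in library 2. The 12 B-lineage markers differed by a median of 0.19, and their summed level was 11240, 11504 and 9094 FPKM in libraries 1, 2 and 3. Summed FPKM of other cell types' markers in libraries 1, 2 and 3 was 51.4, 13.7 and 29.1 for myeloid and plasmacytoid dendritic cell genes, 7.77, 2.72 and 6.73 for T and NK cell genes, 1.47, 1.64 and 1.48 for red cell genes and 2.78, 0.622 and 0.174 for stromal feeder genes. The FPKM sum of all genes was 505261 in library 3, the lowest of the 11. The part of these values in the difference was not tested. The 2 wt proB libraries differed by a median of -0.03 (library 2 minus 1), and the libraries of a mouse by -0.14 to -0.06.

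Among the mice, 713 had the lowest level of most replication genes. Its mean was the lowest of the 3 mice in 36 of 42 members, and both its libraries were below all 4 libraries of mice 686 and 760 in 31, against 26.6% of 11293 genes, and above them in 2, against 25.8%. Mouse 686 had the highest mean in 24 members, mouse 760 in 15 and mouse 713 in 3 (Orc4, Orc5 and Rpa1). For the order of the mouse means no share of all genes is given here. The median of mouse 713 minus the mean of the other mice was -0.43 on the log2 scale for the members, with Pold1 at -0.71 and Orc4 at 0.24 as the extremes, against -0.01 for all genes. Mice 760 and 686 differed by a median of -0.07. By role the median of mouse 713 minus the others was -0.63 for Cdc6 and Cdt1, -0.57 for the clamp and its loader, -0.54 for MCM2-7, -0.24 for the origin recognition complex and -0.18 for RPA. Over the 15 mitosis genes it was 0.06, with 10 above 0 and 5 below. Over the 27 other replication fork and origin genes it was -0.33, with 3 above 0 and 24 below. The 16 E2F and S phase regulators had 0.06 (9 above, 7 below) and the 8 other nucleotide supply genes 0.02 (4 above, 4 below).

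In the limma F test among mice, which sets them against the spread between libraries of all groups, 0 of 42 members passed, against 22.3% of 11293 genes. That spread includes the dHet proB libraries. Deviations of same-numbered libraries correlated at 0.64 between mice 686 and 713, but only at 0.13 and 0.20 between these and mouse 760. With the replicate number as a block 2 members passed (Pold1 and Rfc1), against 27.6% of genes. When the 6 B-ALL libraries alone were fitted, an alternative chosen after the data were seen, 32 members passed, against 47.7% of 10640 genes, and 31 of the 32 were lowest in mouse 713; with the block as well, 31 members passed, against 51.3% of genes. Without dHet proB library 3, 5 members passed (Mcm7, Pold1, Rfc1, Rfc2 and Rfc5), against 29.4% of genes. The share of all called genes that were lowest in mouse 713 is not given here. Such a test compares these 3 mice through repeat libraries of each. Hemoglobin and other red cell genes were also unequal among the mice, with a summed level of 410 and 515 FPKM in mouse 713 against 8.12 and 9.47 in mouse 686 and 108 and 135 in mouse 760, and the summed T and NK cell markers were 34.8 and 36.3 FPKM in mouse 713, against 54.2 and 54 in mouse 686 and 334 and 270 in mouse 760. These sums do not hold for most of the 7 T and NK cell markers. In mouse 760 minus mouse 686, 5 were below 0 and 2 above, with a log2 median of -0.65 and Nkg7 highest at 2.93. In mouse 713 minus the mean of the other mice, 5 were above 0 and 2 below, with a median of 0.23 and Nkg7 lowest at -2.23. The part of red cells, T cells and NK cells in the replication levels was not tested.

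Leukemic cells were next compared with dHet proB cells. No replication gene passed the threshold: limma called 0 of 42 higher or lower, against 25.5% of 11110 genes tested (14.5% as higher). An unadjusted p under 0.05 was found in 4 members (Orc2, Mcm2, Pold2 and Rfc2), all higher in B-ALL, against 4469 of the 11110 genes either way. The log2 fold change was above 0 in 35 members and below it in 7, with a median of 0.21 against 0.04 for all genes, from -0.31 for Rrm2 to 0.96 for Mcm2. The median was 0.04 after rescaling to TPM, which moved that of all genes to -0.11, and 0.10 after quantile normalization (all genes -0.05). By role it was 0.61 for Cdc6 and Cdt1, 0.47 for MCM2-7, 0.29 for Fen1 and Lig1, 0.20 for RPA, 0.19 for the origin recognition complex, 0.17 for polymerases delta and epsilon, 0.16 for helicase activation, 0.12 for polymerase alpha-primase, 0.10 for the clamp and its loader and -0.06 for ribonucleotide reductase. Mcm2 averaged 247 ± 44.4 FPKM in B-ALL mice and 139 ± 78 FPKM in dHet proB libraries (SD, n = 3 each), a log2 fold change of 0.96 ± 0.37 (SE, adjusted p = 0.0919). Orc2 averaged 26.1 ± 4.41 FPKM in B-ALL mice and 16.7 ± 4.39 FPKM in dHet proB libraries, a log2 fold change of 0.63 ± 0.21 (adjusted p = 0.0575), and it was the single member with every B-ALL library above every dHet proB library, against 19.5% of all genes (34.9% either way). For Pold2 the log2 fold change was 0.86 ± 0.34 (adjusted p = 0.094), for Rfc2 0.76 ± 0.31 (adjusted p = 0.105) and for Fen1 0.73 ± 0.38 (adjusted p = 0.192).

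All 6 MCM genes had a fold change above 0 against dHet proB, also under TPM and quantile scaling, but without dHet proB library 3 Mcm3 was at -0.13, Mcm4 at -0.13 and Mcm7 at -0.01, and none passed in the full fit: 0.36 for Mcm3, 0.23 for Mcm4, 0.54 for Mcm5, 0.55 for Mcm6 and 0.39 for Mcm7 stand beside Mcm2. Cdc6 had 0.84 ± 0.58, with a 95% confidence interval of -0.49 to 2.17. For Pcna it was -0.17 ± 0.42 and for Rrm2 -0.31 ± 0.63. The median SE of the members was 0.365, against 0.215 for all genes tested. Markers of other cells moved with this comparison: 6 of 7 T and NK cell markers tested rose in B-ALL, with a summed level of 34.8 to 334 FPKM in B-ALL libraries and 2.72 to 7.77 in dHet proB libraries, and the hemoglobin genes Hba-a1 and Hbb-b1 rose too. Red cell markers summed to 8.12 to 515 FPKM in B-ALL libraries and 1.47 to 1.64 in dHet proB libraries. The part of such cells in the replication levels was not tested.

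Single dHet proB libraries decided this comparison: 20 of 42 members turned below 0 without library 3 and 6 turned above 0 without library 2. Without dHet proB library 2 the members' median was 0.60 and 5 passed as higher in B-ALL, against 24.0% of genes called: Mcm2 at 1.38 (adjusted p = 0.0128), Pold2 at 1.27 (0.00807), Fen1 at 1.15 (0.0301), Rfc2 at 1.05 (0.0352) and Orc2 at 0.83 (0.0198). Without library 3 the median was -0.13 and Rrm2 alone passed, as lower in B-ALL, at -1.13 (adjusted p = 0.0369), against 22.8% of genes called. Without library 1 no member passed. The labels do not say how the 3 dHet proB libraries differed.

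The comparison of leukemic cells with wt proB cells asks how the leukemia differs from marrow cells with both genes intact. Again limma called 0 of 42 members, against 18.2% of 11110 genes (8.15% higher, 10.0% lower). Orc2 alone had an unadjusted p under 0.05, against 3892 of the 11110 genes. The fold change was above 0 in 28 members and below it in 14, with a median of 0.18 against -0.02 for all genes, from -1.03 for Rrm2 to 0.58 for Orc2 and Mcm2. Rescaling to TPM moved the median to -0.03 (all genes -0.20) and quantile normalization to -0.02 (all genes 0.02). Every B-ALL library was above both wt proB libraries in 7 members (Orc2, Mcm2, Mcm6, Prim2, Pole2, Rfc2 and Rpa3), against 23.5% of all genes, and below both in 5 (Rrm2, Gins3, Rfc3, Cdc45 and Pcna), against 24.7%. The 12 together are 28.6% of the members, against 48.2% of all genes.

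Rrm2 averaged 449 ± 45.1 FPKM in B-ALL mice (SD, n = 3) and 920 ± 184 FPKM in wt proB libraries (SD, n = 2), a log2 fold change of -1.03 ± 0.71 (SE, adjusted p = 0.338). The SE holds the spread of the dHet proB libraries, and in a fit of only the 2 groups compared Rrm2 passed at the same fold change (adjusted p = 0.0223), against 20.7% of genes called. Orc2 averaged 26.1 ± 4.41 FPKM in B-ALL mice and 17 ± 1.58 FPKM in wt proB libraries, a log2 fold change of 0.58 ± 0.23 (adjusted p = 0.117). Fold changes were 0.58 ± 0.41 for Mcm2, 0.54 ± 0.39 for Mcm6, 0.48 ± 0.23 for Pole2 and 0.42 ± 0.35 for Rfc2 on the higher side. On the lower side they were -0.50 ± 0.29 for Gins3, -0.40 ± 0.49 for Rfc3, -0.39 ± 0.44 for Cdc45 and -0.29 ± 0.47 for Pcna. The MCM genes Mcm3, Mcm4, Mcm5 and Mcm7 had 0.31, 0.21, 0.14 and 0.35, of which Mcm5 turned to -0.06 under TPM and -0.10 under quantile scaling. The summed myeloid and plasmacytoid dendritic cell markers were 28.4 to 258 FPKM in B-ALL libraries, 13.7 to 51.4 in dHet proB libraries and 549 and 637 in wt proB libraries, with Siglech, a plasmacytoid dendritic cell gene, at 77.3 and 132 FPKM in wt proB, and the part of such cells in the wt proB levels was not tested.

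**Figure D4:**
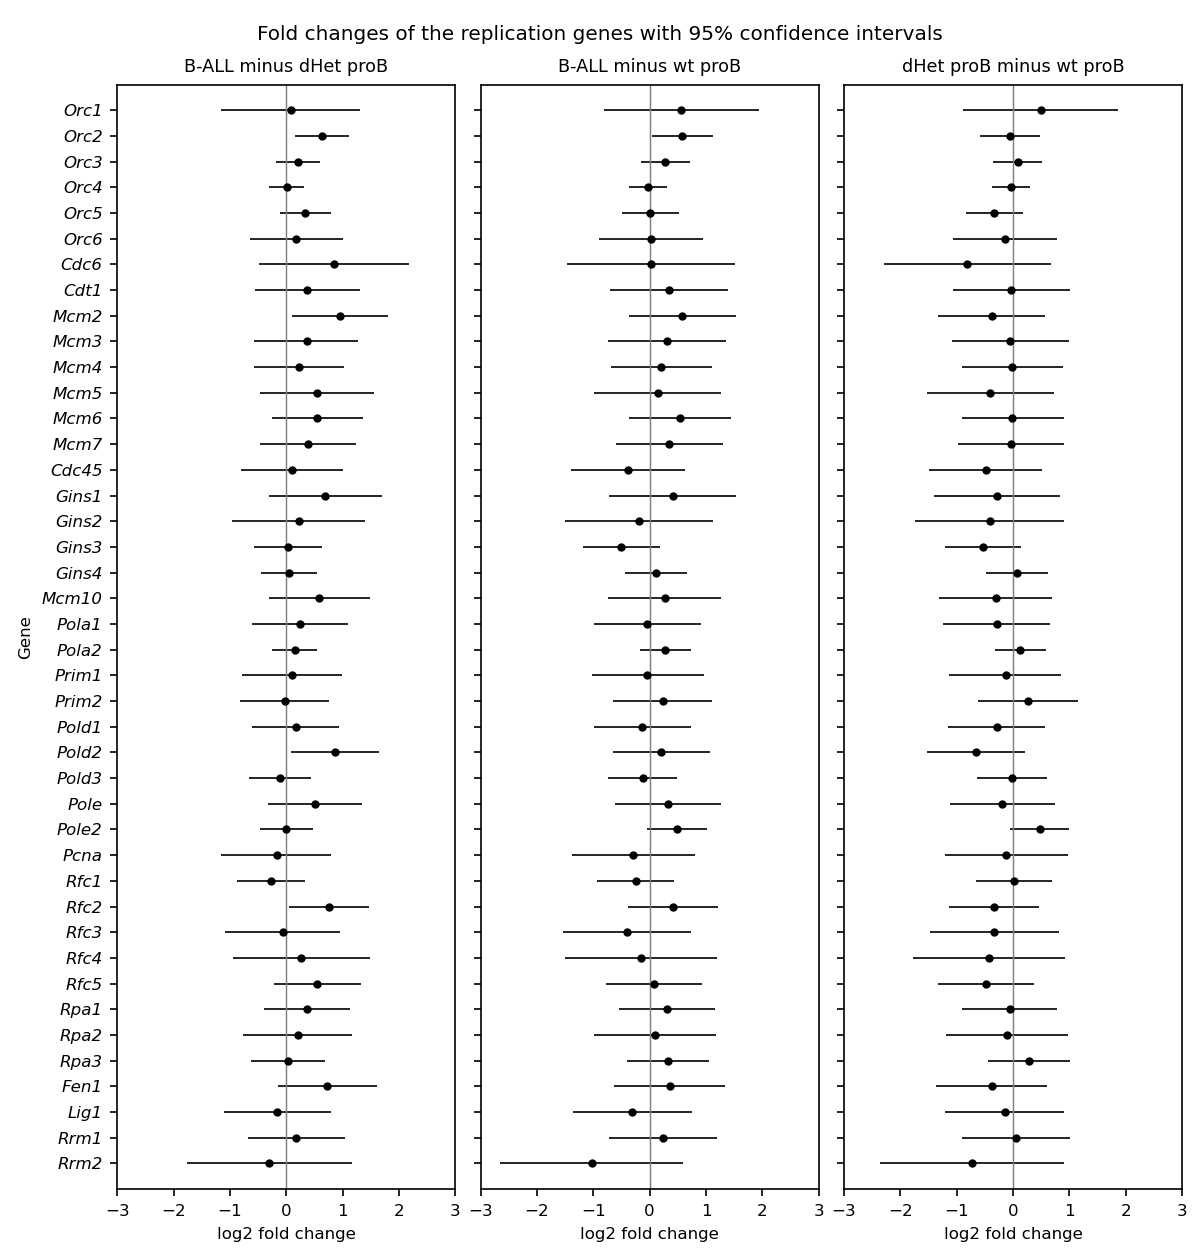
Log2 fold change of each of the 42 replication genes in the 3 comparisons, with 95% confidence intervals from limma; the line marks 0. No gene passed after adjustment over all genes, and Mcm2 at 0.96 against dHet proB and Rrm2 at -1.03 against wt proB are the points farthest from 0 in the panels of B-ALL.

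Pre-leukemic dHet proB cells were then set against wt proB cells. Here too limma called 0 of 42 members, against 8.68% of 11110 genes (2.18% higher, 6.50% lower). An unadjusted p under 0.05 was found in 0 members, against 2505 of the 11110 genes. The fold change was above 0 in 9 members and below it in 33, with a median of -0.14 against -0.04 for all genes, from -0.81 for Cdc6 to 0.49 for Orc1. Both wt proB libraries lay within the range of the dHet proB libraries in 38 of 42 members, against 30.7% of genes. The dHet proB range of the members was wide, at a median of 3.09-fold, against 1.1-fold between the wt proB libraries. Likeness of the groups is therefore not read from this count. Pole2 was the single member with every dHet proB library above wt proB (0.48 ± 0.23, adjusted p = 0.272), against 18.9% of genes, and Orc5 the single one with every library below (-0.33 ± 0.22, adjusted p = 0.442), against 24.1%. Over both directions 43.0% of genes did not overlap. The 6 MCM genes had fold changes from -0.41 for Mcm5 to -0.01, with a median of -0.04. Without dHet proB library 3, 25 of 42 members turned above 0, and without library 2, 7 turned below 0. Without dHet proB library 2 the median was -0.52 and Pold2 passed as lower (-1.06, adjusted p = 0.0307). Without library 3 it was 0.22 and Prim2 passed as higher (0.71, adjusted p = 0.042). Shares of all genes called in these fits are not given here. Each call is 1 of 42 members, beside 8.68% of genes in the full fit, so nothing is read from it.

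Levels were next set against the mean of the 42 genes in the same library, a description chosen after the data were seen in which any factor common to a whole library nearly cancels. The median SD of the members across the dHet proB libraries was 0.19 on this relative log2 scale, against 0.78 as deposited, and 36 members varied less. Subtracting the members' own mean removes the shift they share, so a smaller SD follows from the scale and nothing is read from it. On the relative scale 4 members were above all 5 proB libraries in every B-ALL library (Mcm2, Mcm6, Gins1 and Rfc2), and 3 were below all 5 (Gins3, Pcna and Lig1). Of 11293 genes set against the same mean, 2.85% were above and 5.17% below, but the mean subtracted is that of the members themselves, so the members and the other genes are not treated alike and nothing is read from these shares. Mcm2 stood 1.46 to 1.83 above the mean of the members in B-ALL libraries, 0.89 to 1.15 above it in dHet proB libraries and 1.11 and 1.34 above it in wt proB libraries. Pcna stood 1.69 to 1.88 above it in B-ALL libraries, 1.92 to 2.38 in dHet proB libraries and 2.08 and 2.19 in wt proB libraries. Rrm2 stood 2.58 and 2.54 above it in mouse 686, 2.89 and 2.80 in mouse 713 and at most 2.43 in mouse 760, 3.45, 3.72 and 2.28 in dHet proB libraries 1 to 3, and 3.49 and 3.92 in wt proB libraries, so dHet proB library 3 alone of the proB libraries was not above every B-ALL library. Between dHet proB and wt proB, 6 members were higher in every dHet proB library (Mcm4, Mcm7, Prim2, Pole2, Rpa3 and Rrm1) and 9 lower (Cdc6, Mcm5, Cdc45, Gins3, Mcm10, Pola1, Pold2, Rfc2 and Rfc5). The shares of all genes were 7.50% and 9.55%, from which nothing is read either.

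**Figure D5:**
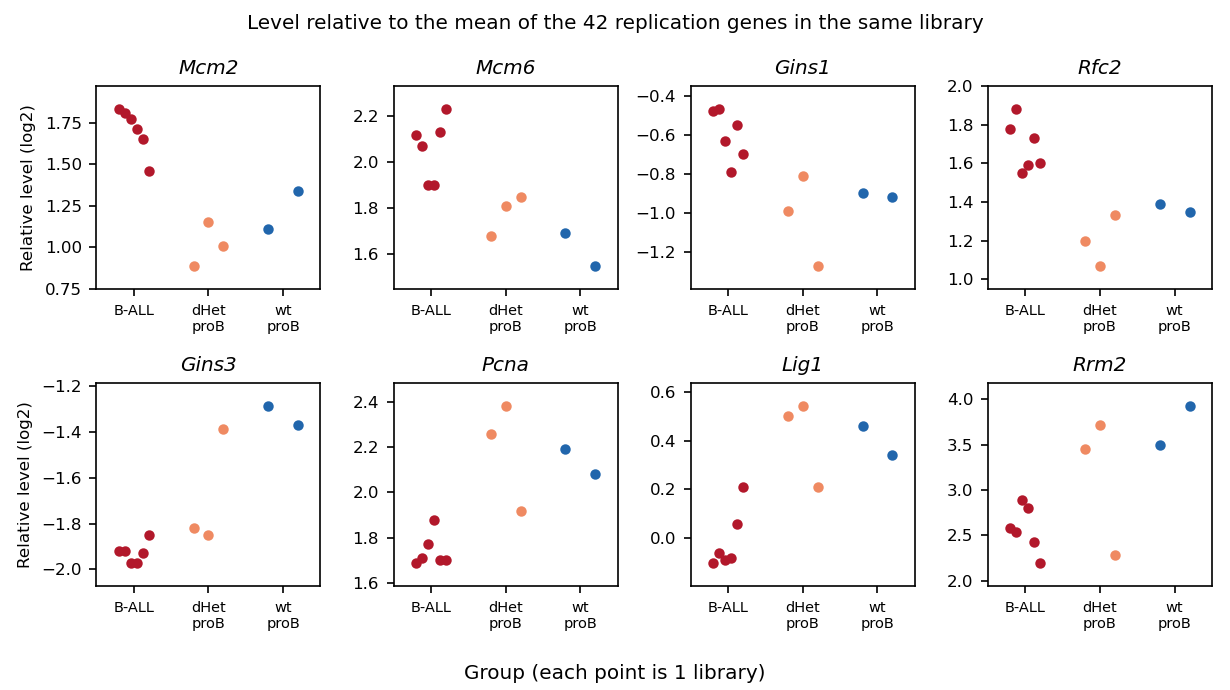
Relative level of 8 members, as log2(FPKM + 1) minus the mean of the 42 replication genes in the same library; each point is 1 library and the vertical axis differs between panels. Mcm2, Mcm6, Gins1 and Rfc2 are higher in every B-ALL library than in every proB library, Gins3, Pcna and Lig1 lower, Gins3 and Lig1 by less than the second decimal, and Rrm2 overlaps only with dHet proB library 3.

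The mean log2 level of the 42 replication genes minus that of the 15 mitosis genes was 0.15 and 0.17 in mouse 686, -0.19 and -0.22 in mouse 713, 0.44 and 0.27 in mouse 760, -0.32, -0.27 and -0.54 in dHet proB libraries 1 to 3, and -0.39 and -0.24 in wt proB libraries. All 6 B-ALL libraries were above all 5 proB libraries, although those of mouse 713 by little. The closest values were -0.22 in mouse 713 and -0.24 in a wt proB library, a smaller gap than that between the wt proB libraries. This difference of means was not planned and was not tested, and no share over other gene sets stands beside it. Against dHet proB the mitosis genes had 4 fold changes above 0 and 11 below with a median of -0.13. None passed, against 25.5% of 11110 genes, and 1 had an unadjusted p under 0.05, against 4469 of the 11110. Against wt proB the split was again 4 and 11 with a median of -0.28. Cenpf alone, a kinetochore gene, passed as lower at -1.06 ± 0.30 (limma, adjusted p = 0.0459). That is 6.67% of the 15 genes, below the 10.0% of all genes called lower. The call of Cenpf was lost in 13 of 26 alternatives (adjusted p up to 0.214, without a wt proB library).

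Among neighbouring pathway genes a few passed. Of all genes tested, 25.5% passed against dHet proB, 14.5% as higher, and 18.2% against wt proB, 8.15% as higher and 10.0% as lower. Of 27 other replication fork and origin genes, Dna2, a nuclease and helicase that works on long flaps, rose in B-ALL. It had 20.6 to 31.6 FPKM in B-ALL libraries, 9.3 to 14.8 in dHet proB libraries and 13.4 and 13.5 in wt proB libraries, with every B-ALL library above every proB library. The log2 fold change was 1.12 ± 0.21 (SE, adjusted p = 0.00938) against dHet proB and 0.86 ± 0.24 (adjusted p = 0.0408) against wt proB. No other gene of the 27 passed either way. The fold change was below 0 in 6 of them against dHet proB and in 9 against wt proB, and the median was 0.24 against dHet proB and 0.13 against wt proB. The call of Dna2 against wt proB was lost in 8 of 26 alternatives (adjusted p up to 0.219, without a wt proB library), and that against dHet proB in none of them.

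Of 8 other nucleotide supply genes, Rrm2b and Dck fell in B-ALL in both comparisons and no other passed. Rrm2b, the p53-inducible small subunit that can replace Rrm2 outside S phase, had 4.6 to 8.73 FPKM in B-ALL libraries, 20 to 22.7 in dHet proB libraries and 34.1 and 34.2 in wt proB libraries. It fell by 1.66 on the log2 scale against dHet proB (SE 0.20, adjusted p = 0.0022) and by 2.30 against wt proB (SE 0.23, adjusted p = 0.000763). Dck, the kinase that salvages deoxycytidine, had 115 to 162 FPKM in B-ALL libraries, 215 to 301 in dHet proB libraries and 212 and 241 in wt proB libraries. It fell by 1.02 against dHet proB (SE 0.19, adjusted p = 0.00831) and by 0.79 against wt proB (SE 0.21, adjusted p = 0.0353). The call of Dck against wt proB was lost in 6 of 26 alternatives (adjusted p up to 0.206, without a wt proB library), and those of Rrm2b in none of them. The median of the 8 genes was 0.16 against dHet proB and -0.09 against wt proB.

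Of 16 E2F and S phase regulators, 2 fell in B-ALL in each comparison and no other passed, a share of 12.5% near that of all genes called lower, and the median was -0.20 against dHet proB and -0.36 against wt proB. Rb1, the retinoblastoma protein that restrains E2F factors, had 2.01 to 5.3 FPKM in B-ALL libraries, 9.8 to 18.6 in dHet proB libraries and 15.8 and 17.5 in wt proB libraries, and fell by 1.68 (SE 0.26, adjusted p = 0.00518) against dHet proB and by 2.07 (SE 0.29, adjusted p = 0.00348) against wt proB. Cdc25a, a phosphatase that activates Cdk2, fell by 0.63 against dHet proB (adjusted p = 0.0281), with 7.87 to 12.8 FPKM in B-ALL libraries, 12.8 to 18.3 in dHet proB libraries and 9.12 and 9.84 in wt proB libraries. E2f2, an activating E2F, fell by 2.66 against wt proB (SE 0.61, adjusted p = 0.022), with 12.1 to 36.8 FPKM in B-ALL libraries, 20.1 to 95.4 in dHet proB libraries and 132 and 138 in wt proB libraries. Against dHet proB the call of Cdc25a was lost in 10 of 26 alternatives (adjusted p up to 0.278, with mouse as a random effect), among them without mouse 686, mouse 760, dHet proB library 2, dHet proB library 3 or either wt proB library, and that of Rb1 in 1 (0.0504). Against wt proB the call of E2f2 was lost in 4 (up to 0.162) and that of Rb1 in 2 (up to 0.0552). Leaving out either wt proB library lost both calls, and leaving out mouse 686 or mouse 760 also lost that of E2f2. Between dHet proB and wt proB limma called none of the genes in these 4 lists, against 8.68% of 11110 genes. An unadjusted p under 0.05 was found in 0 of 27 fork, 1 of 8 supply, 2 of 16 regulator and 0 of 15 mitosis genes, against 2505 of the 11110.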

How the data were processed

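For each of the 11 libraries the authors deposited a table of FPKM for 24319 gene symbols, for which the submitters' processing notes name the aligner STAR 2.5.3a, Cuffdiff, Cuffnorm 2.2.1 and Cufflinks 2.2.1, and the build mm9. The scaling used in Cuffnorm and the annotation are not given in the sources used. The tables hold no counts, so the depth of each library is unknown and no counting error is given. FPKM was transformed to log2(FPKM + 1), which understates changes of low genes. The libraries of a B-ALL mouse were averaged, giving 8 units, and genes with FPKM of 1 or more in 2 units (11110) were tested with limma 3.58.1 (R 4.3.3, statmod 1.5.0), all 3 groups in 1 fit with a mean-variance trend, two-sided, with Benjamini-Hochberg adjustment over all genes and a threshold of 0.05. The F test among mice used all 11 libraries in 5 groups (11293 genes). Deviations of same-numbered libraries correlated at 0.64 between mice 686 and 713 and at 0.13 and 0.20 between these and mouse 760. Over the other pairs of groups the correlation was -0.13 to 0.11, so pairing by replicate number was clear only for mice 686 and 713. Both fits were run on simulated data in which libraries varied independently. The simulation had no added spread between mice and no shift of a whole library, so it does not cover the pattern of the dHet proB libraries. The members and gene lists were chosen with earlier results of these data known. All 42 members are named; values per library are given for the MCM genes and for the member of each role with the highest mean, and further ones were chosen after their values were seen. Genes of the other lists are named where they passed, up to 3 per direction. Alternatives were other pseudocounts, filters, scalings, spreads, the replicate block and left-out libraries. Shared 50-base words were counted in GENCODE M21 transcripts. Protein sequences were not used here.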

Additional observations from a re-analysis of the deposited data

How the results depend on the processing

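Counts of replication genes past the threshold stayed at 0 in the 3 comparisons and among the mice under most alternatives. The full fits called 25.5% of all genes in B-ALL minus dHet proB and 18.2% in B-ALL minus wt proB. They called 8.68% in dHet proB minus wt proB and 22.3% among the mice. Where 1 of 42 members passed below without a share of all genes beside it, nothing is read from that call. In B-ALL minus dHet proB, 1 member passed as higher with the mouse as a random effect (Orc2, 0.63, adjusted p = 0.0421), and leaving out single libraries or mice gave 0 to 5 higher, 0 to 1 lower and 1393 to 2965 genes in all. In B-ALL minus wt proB, 1 member (Rrm2) passed as lower with only the 2 groups compared, the median moved to -0.03 under TPM and to -0.02 under quantile scaling, where Mcm5 turned to -0.06 and -0.10, and leaving out gave 0 members and 195 to 2460 genes, the lowest without a wt proB library. In dHet proB minus wt proB, a filter of 5 FPKM called 566 genes, against 964, and leaving out gave 0 to 1 members either way and 76 to 1251 genes. Among the genes followed through all alternatives, fold changes that turned sign when dHet proB library 3 (first value) or 2 (second value) was left out were, in B-ALL minus dHet proB, -0.13 and 0.76 for Mcm3, -0.13 and 0.58 for Mcm4, -0.01 and 0.75 for Mcm7, -0.69 and 0.28 for Pcna and -1.13 and 0.33 for Rrm2, and in dHet proB minus wt proB 0.02 and -0.80 for Mcm2, 0.10 and -1.36 for Rrm2 and 0.71 and 0.00 for Prim2. Among the mice, 1 member passed under TPM (Rfc1), leaving out a B-ALL library gave 0 members and 1302 to 2177 genes, and the fits chosen after the data were seen gave 32 members and 5073 genes with the 6 B-ALL libraries alone and 5 members and 3298 genes without dHet proB library 3. The cause was not tested.

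Replicate numbers do not pair the 3 groups: deviations of same-numbered libraries correlated at -0.13 to 0.11 over the 7 pairs other than those between mice. With the replicate block, in which number 3 absorbs dHet proB library 3, Rrm2 was 1 member past as lower in B-ALL against dHet proB (-1.13) and against wt proB (-1.03), 529 genes passed between the proB groups, and 2 members passed among the mice (Pold1 and Rfc1), or 31 members and 5460 genes with the 6 B-ALL libraries alone. The share of all genes called with the block is not given here for the comparisons of B-ALL, so nothing is read from the calls of Rrm2. With the block, fold changes turned to -0.13 for Mcm3, -0.13 for Mcm4 and -0.01 for Mcm7 against dHet proB, and to 0.02 for Mcm2 and 0.10 for Rrm2 in dHet proB minus wt proB. Depth is unknown, and with 2 or 3 proB libraries the 95% intervals of most members span both directions.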
